A study of Mus musculus with 6 samples.

Results

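Endothelial identity and activation genes were described in RNA-seq libraries of neonatal mouse heart cells in which Gdf11 was lowered. They are 36 genes taken by name out of 54532 in the deposited gene table. The list was chosen with earlier results of these data known, so its counts are not independent of them. All 36 were found, and 35 passed the filter on low values (a mean of at least 0.5 FPKM over all 6 libraries). The libraries came from primary ventricular cells of 1-day-old C57BL/6J mice (strain label C57BL/6), which the labels call primary cardiomyocytes. In the 3 libraries of the first group (shGDF11) the cells carried short hairpin RNA against Gdf11, whose product is a TGF-beta family ligand released by cells. In the 3 control libraries (sh-nc in the sample labels, sh-Vector in the protocol) they carried a control hairpin. Both groups received their hairpin at a multiplicity of infection of 200, and RNA was taken after 48 h. The treatment labels number the hairpins as well as the samples (sh-GDF11-1 to sh-GDF11-3). Whether these numbers stand for different hairpins, separate cultures or technical repeats is not given in the sources used here, which also give no hairpin sequence and no vector. The p-values therefore measure the spread between these libraries, which may be technical. The series is about Gdf11 deficiency, blood vessel growth in the heart and heart failure, and the comparison asks how endothelial transcripts in the cultures differed when Gdf11 was lowered.

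Endothelial cells line blood and lymph vessels. They hold together through adhesion proteins such as VE-cadherin, PECAM-1 and claudin-5, and their identity is kept by transcription factors of the ETS and SOX families. When activated by inflammatory signals through NF-kB, they display selectins, ICAM-1 and VCAM-1, which let leukocytes roll and then adhere. The heart is densely supplied with capillaries, and enzymatic preparations of neonatal cardiomyocytes carry some endothelial cells along.

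Reads in listed genes numbered 15267083 to 16152910 per library, and 16922 to 20515 of them lay in the 36 genes. Levels are in FPKM, fragments scaled to gene length and to library size, and values with ± are means with the SD over the 3 libraries of a group unless SE is named. The hairpin's target Gdf11 averaged 2.46 ± 0.260 FPKM in control against 0.665 ± 0.0986 FPKM in shGDF11. The marker genes of the labelled cell type were abundant in every library, with 12 cardiomyocyte markers summing to 5272 to 6142 FPKM. The 36 endothelial genes together summed to 221.0 to 277.8 FPKM. Their sum was thus small beside that of the 12 cardiomyocyte markers. Sums of chosen genes do not measure the share of a cell type in the libraries.

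Log2 fold changes were negative for 28 of the 35 endothelial genes tested and positive for 7. Over all 15418 genes tested they were negative for 7595 and positive for 7823. Of the 35 tested, 18 fell, 1 rose and 16 were not called by limma at an adjusted p under 0.05. Among all 15418 genes tested, 13.1% were called lower and 14.4% higher. The median log2 fold change of the 35 was -0.39, against 0.01 over all genes tested. The deepest falls were those of the selectins Selp and Sele. The 1 rise was that of Vcam1. In this bulk RNA, fewer endothelial cells and less of a transcript per cell cannot be told apart. Control and shGDF11 values were fully apart for 20 of the 35 with shGDF11 lower and for 3 with shGDF11 higher, against 22.2% and 23.7% of all genes tested.

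**Figure D1:**
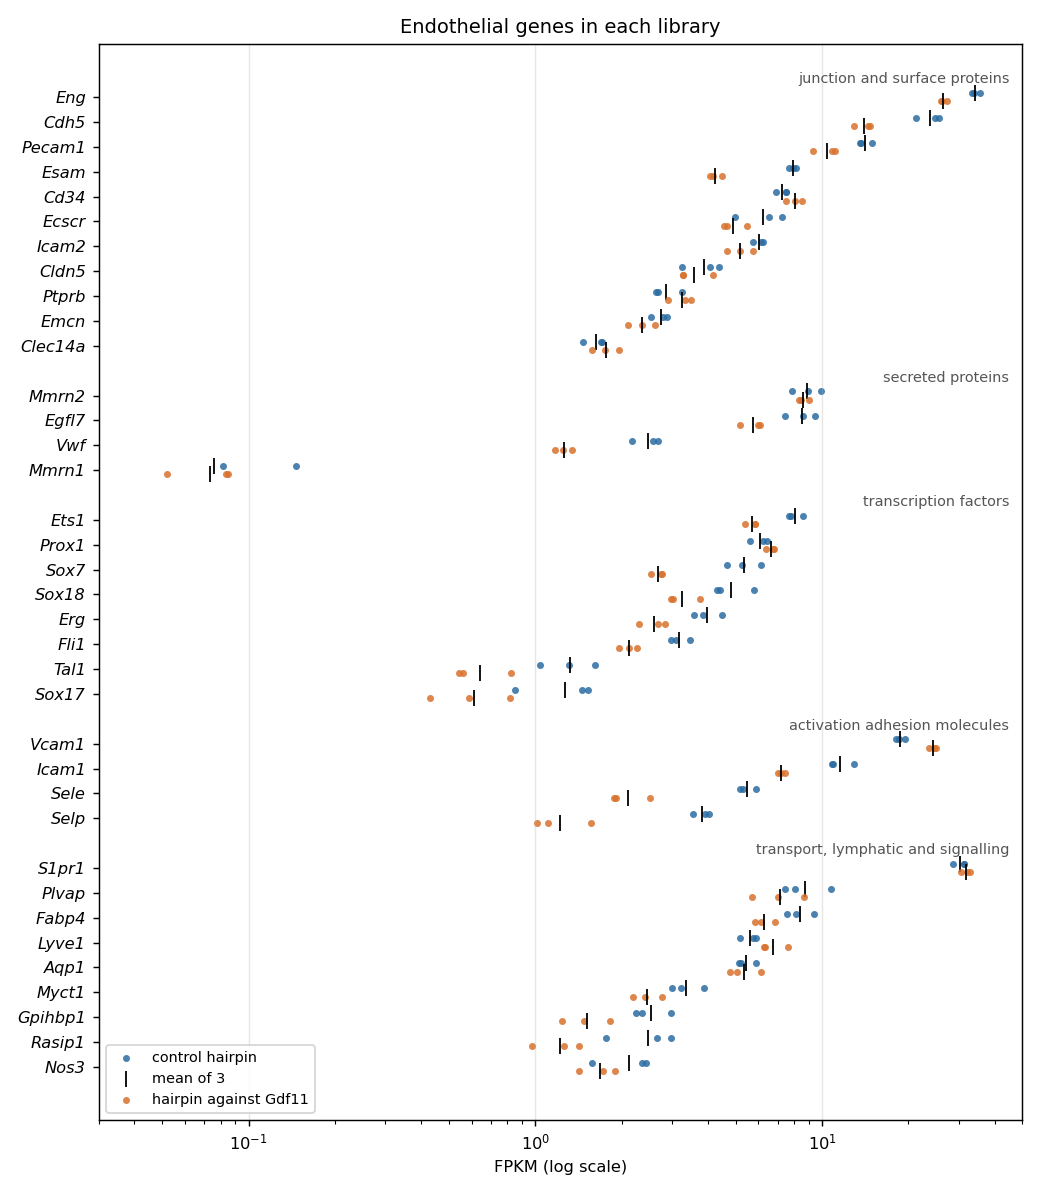
FPKM (log axis) of the 36 endothelial genes in each of the 3 control and 3 shGDF11 libraries, grouped by role, with a bar at each group's mean. The shGDF11 points lie left of the control points for Selp, Sele, Esam and Sox7 and right of them for Vcam1. Mmrn1 is listed at 0 in 1 control library, which a log axis cannot show.

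The activation molecules parted into 3 that fell and 1 that rose, beside 13.1% of all genes called lower and 14.4% called higher. E-selectin and P-selectin are the lectins on which leukocytes first roll, and their genes Sele and Selp lie in the same direction 57586 bases apart on chromosome 1 of GRCm38. The promoters of Selp, Sele and Icam1 are shown because these are the 3 activation molecules that fell. They run from 250 bases before to 50 bases after the RefSeq start on GRCm38.p6, all on the plus strand, at chr1:164115014-164115313, chr1:164047984-164048283 and chr9:21015690-21015989. A promoter window of Vcam1 was not analysed here, so the sequences give no contrast with the gene that rose. Capitals mark matches, on either strand, to the short NF-kB pattern GGNNNTTCC.

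Selp: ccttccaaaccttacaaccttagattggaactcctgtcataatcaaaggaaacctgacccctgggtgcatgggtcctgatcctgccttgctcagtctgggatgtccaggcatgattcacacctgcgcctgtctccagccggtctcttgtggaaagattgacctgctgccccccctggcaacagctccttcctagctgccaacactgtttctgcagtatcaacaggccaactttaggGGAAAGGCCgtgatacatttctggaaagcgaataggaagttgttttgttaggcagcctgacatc

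Sele: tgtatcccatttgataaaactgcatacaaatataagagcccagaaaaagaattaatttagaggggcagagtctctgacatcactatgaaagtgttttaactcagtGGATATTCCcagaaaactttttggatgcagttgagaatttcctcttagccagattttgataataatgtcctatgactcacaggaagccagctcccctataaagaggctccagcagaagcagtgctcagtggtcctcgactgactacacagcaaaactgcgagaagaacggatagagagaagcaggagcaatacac

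Icam1: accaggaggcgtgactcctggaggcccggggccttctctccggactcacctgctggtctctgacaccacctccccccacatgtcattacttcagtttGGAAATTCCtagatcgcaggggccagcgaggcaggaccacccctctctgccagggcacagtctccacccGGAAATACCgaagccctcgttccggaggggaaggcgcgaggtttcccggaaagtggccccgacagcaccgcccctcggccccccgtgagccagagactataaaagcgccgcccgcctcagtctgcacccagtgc

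The leftmost base of the match lies 14 bases before the start in Selp, 145 before it in Sele, and 153 and 84 before it in Icam1. The pattern is common, being found in 18.5% of 32851 promoter windows of this length. Windows for 16 of the 36 genes were used, 22 windows in all, and the pattern was in 7 of the 22, which belong to 6 genes (Selp, Sele, Icam1, Egfl7, Eng and Mmrn1). An ETS pattern, ACNGGAAG, occurred in 8.15% of all windows and in 5 of the 22, which belong to 4 genes, Sele, Egfl7, Emcn and Myct1. These matches describe letters in the windows and do not show binding.

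Selp (chr1:164115264-164150026) was at 3.55, 4.04 and 3.90 FPKM in the control libraries and at 1.10, 1.01 and 1.56 FPKM in shGDF11. Coordinates beside a symbol span the whole gene on GRCm38. Every shGDF11 library lay below every control library, and the mean was 32.0% of control. This gave a log2 fold change of -1.34 ± 0.136 (SE, as for every log2 fold change below) at a limma adjusted p of 0.00104. Behind these values were 246 to 297 reads per control library and 73 to 111 per shGDF11 library. Its exons share 14.1% of their bases with 2 genes on the other strand, Gm16548 and Gm16587, each listed at no more than 0.248 FPKM.

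Sele (chr1:164048234-164057677) was at 5.31, 5.89 and 5.16 FPKM in control and at 2.51, 1.89 and 1.92 FPKM in shGDF11. The groups were again apart, with a log2 fold change of -1.20 ± 0.114 and a limma adjusted p of 0.000852. Icam1 (chr9:21015985-21028817), the integrin ligand on which rolling leukocytes come to rest, was at 12.9, 10.9 and 10.8 FPKM in control and 7.22, 7.44 and 7.01 FPKM in shGDF11. Its mean was 62.6% of control (log2 fold change -0.64 ± 0.0836, limma adjusted p = 0.00231). Gm47079, which lies opposite 11.7% of the Icam1 exon bases, was listed at no more than 0.0528 FPKM.

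Vcam1 (chr3:116109949-116129688), the other integrin ligand, moved the opposite way. It was at 18.5, 18.0 and 19.5 FPKM in control and at 25.0, 24.5 and 23.6 FPKM in shGDF11. All shGDF11 libraries lay above all controls, and the mean was 131% of control (log2 fold change 0.38 ± 0.0581, limma adjusted p = 0.00435). Vcam1 is not restricted to endothelium and is also made by fibroblasts. Of 10 fibroblast markers 3 rose (Col1a2, Col3a1 and Dpt), 0 fell and 7 were not called, beside 14.4% of all genes called higher. Among those not called, Pdgfra and Thy1 were lower in every shGDF11 library than in any control (log2 fold changes of -0.17 and -0.15), and Tcf21 was at -0.17 with overlap. The sum of the 10, with Col1a1 its largest part, went from 313 to 370 FPKM in control to 397 to 414 FPKM in shGDF11. The part of this in the Vcam1 result was not tested.

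Among the 11 genes of junction and surface proteins, 4 fell and 7 were not called, beside 13.1% of all genes called lower. Esam (chr9:37528078-37538319), an immunoglobulin-type adhesion molecule of endothelial tight junctions, was at 7.95, 8.14 and 7.65 FPKM in control and 4.18, 4.07 and 4.48 FPKM in shGDF11. It had the smallest p of the 36 genes (log2 fold change -0.83 ± 0.0680, limma adjusted p = 0.000527). Cdh5 (chr8:104101625-104144511), which encodes VE-cadherin, was at 25.6, 24.8 and 21.3 FPKM in control and 14.4, 14.7 and 12.9 FPKM in shGDF11. Its groups did not overlap, and its mean was 58.8% of control (log2 fold change -0.74 ± 0.0896, limma adjusted p = 0.0017).

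Pecam1 (chr11:106654217-106750628), the platelet and endothelial adhesion molecule, was at 13.7, 13.6 and 14.9 FPKM in control and 9.28, 10.8 and 11.1 FPKM in shGDF11. Its fall was smaller than that of Cdh5 (log2 fold change -0.42 ± 0.0847, limma adjusted p = 0.012), and it was not called after rescaling to TPM (limma adjusted p = 0.0538). Eng (chr2:32646595-32682669), endoglin, is a co-receptor for TGF-beta and BMP ligands and had the highest level of the 36 genes in control. It was at 35.4, 34.0 and 33.3 FPKM there and at 27.3, 26.2 and 25.9 FPKM in shGDF11 (log2 fold change -0.37 ± 0.0547, limma adjusted p = 0.00383).

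The 7 surface genes that were not called had log2 fold changes from -0.31 to 0.16. Ecscr, an endothelial surface protein that regulates chemotaxis, was at 6.52, 4.96 and 7.22 FPKM in control and 4.56, 5.49 and 4.65 FPKM in shGDF11, and the groups overlapped. Without control replicate 2, the lowest control, Ecscr was called lower (limma adjusted p = 0.0376, against 0.147 with all libraries). Icam2, a constitutive endothelial adhesion molecule, was at 6.22, 5.73 and 6.15 FPKM in control and 5.75, 5.16 and 4.66 FPKM in shGDF11. The 95% interval of its log2 fold change ran from -0.41 to 0.01. Cldn5, the claudin of endothelial tight junctions, gave an interval from -0.42 to 0.21, and Emcn, the sialomucin endomucin, one from -0.42 to 0.06. A fall of the size seen for Pecam1 lies inside the Ecscr interval, which ran from -0.64 to 0.02.

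Cd34, a sialomucin of capillaries that fibroblasts and progenitor cells also carry, was at 6.89, 7.46 and 7.46 FPKM in control and 8.54, 8.07 and 7.50 FPKM in shGDF11. Its interval ran from -0.04 to 0.31, so a fall of the size of that of Pecam1 lay outside it. Ptprb, the phosphatase VE-PTP that restrains TIE2 and VE-cadherin signalling, gave -0.10 to 0.42. Clec14a, a lectin of vessel endothelium, gave -0.18 to 0.35 at 1.47 to 1.95 FPKM over the 6 libraries.

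**Figure D2:**
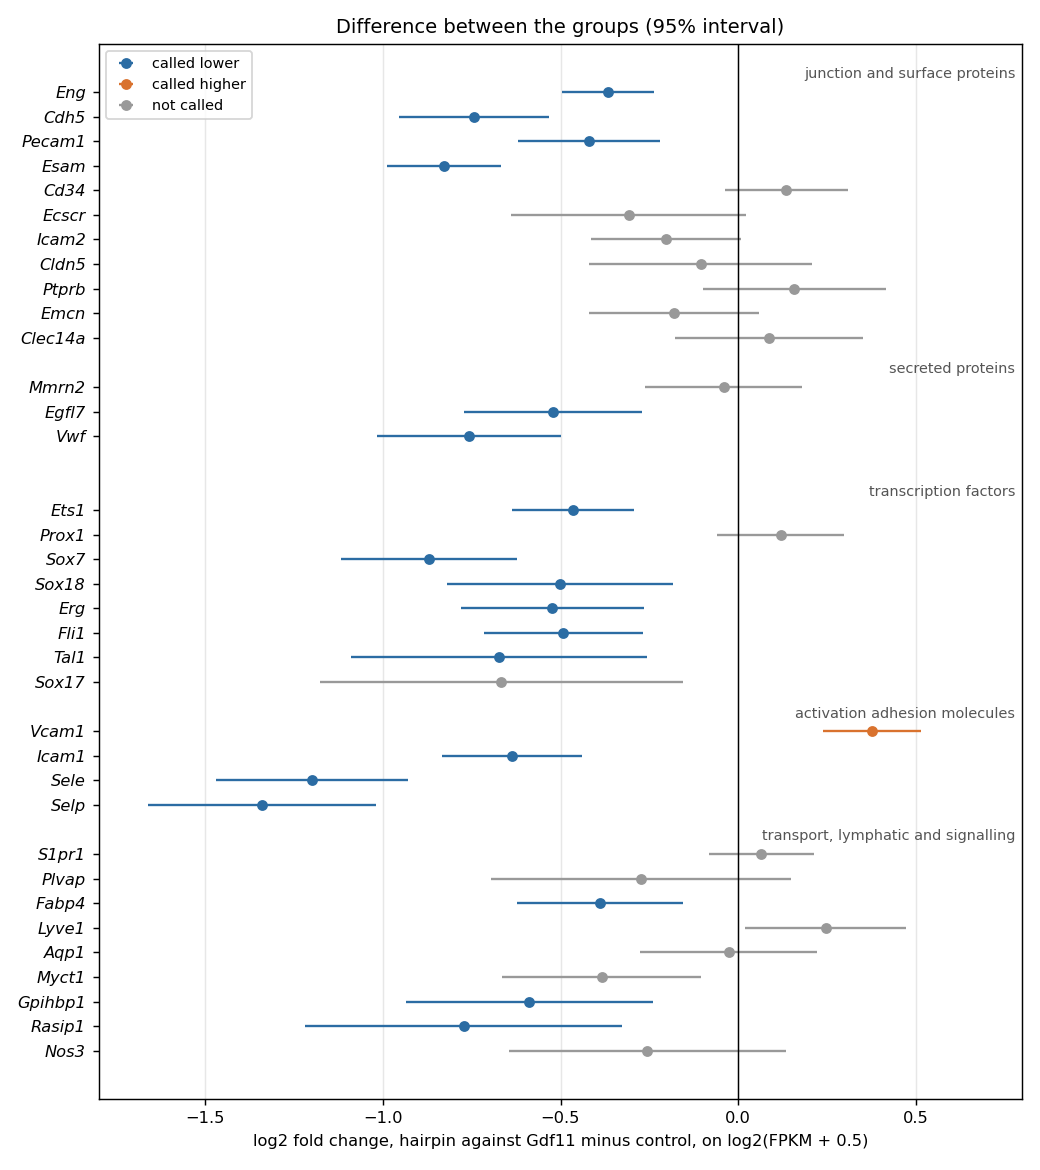
Log2 fold change of the 35 tested endothelial genes, shGDF11 minus control on log2(FPKM + 0.5), with the 95% interval of the limma fit, in the same order by role. The 18 genes called lower reach -1.34 for Selp, and Vcam1 at 0.38 is the 1 called higher.

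Of the 4 secreted proteins, Vwf and Egfl7 fell, beside 13.1% of all genes called lower. Vwf (chr6:125546774-125686679) encodes von Willebrand factor, which tethers platelets and is stored in endothelial granules with P-selectin. It was at 2.69, 2.17 and 2.56 FPKM in control and 1.25, 1.17 and 1.34 FPKM in shGDF11, with no overlap. The shGDF11 mean was 50.7% of control (log2 fold change -0.76 ± 0.110, limma adjusted p = 0.00345). Egfl7 (chr2:26580014-26593120), an endothelial matrix protein, was at 9.44, 8.58 and 7.43 FPKM in control and 6.10, 5.99 and 5.16 FPKM in shGDF11 (log2 fold change -0.52 ± 0.106, limma adjusted p = 0.0124). It shares 9.41% of its exon bases with genes on its own strand, among them its hosted microRNA gene Mir126a, and these were listed at 0 throughout. On the other strand it shares 3.41%. Of the genes there, Agpat2 was at 7.60 to 9.32 FPKM in control and 5.85 to 7.20 FPKM in shGDF11. The part of Agpat2 in the Egfl7 result was not tested.

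Mmrn2 and Mmrn1 are related extracellular proteins of vessels, and Mmrn1 is also found in platelets and lymphatic endothelium. Mmrn2 was at 7.83 to 9.93 FPKM in control and 8.30 to 9.03 FPKM in shGDF11, with an interval of its log2 fold change from -0.26 to 0.18. Mmrn1 was the only gene below the filter, with 0, 8 and 14 reads in the control libraries and 5, 8 and 8 in shGDF11. At this depth no difference in Mmrn1 was detectable.

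Transcription factors of the endothelium fell in 6 of 8 cases, and 2 were not called, beside 13.1% of all genes called lower. Sox7, Sox17 and Sox18 are the SOX factors of group F, which drive vessel development. Sox7 (chr14:63943673-63950732) was at 5.25, 6.11 and 4.66 FPKM in control and 2.75, 2.76 and 2.54 FPKM in shGDF11 (log2 fold change -0.87 ± 0.105, limma adjusted p = 0.00171). Sox18 (chr2:181669836-181671640) was at 4.40, 5.78 and 4.31 FPKM in control and 3.76, 2.98 and 3.02 FPKM in shGDF11 (log2 fold change -0.50 ± 0.134, limma adjusted p = 0.0317). Both were lower in every shGDF11 library, but the call for Sox18 was lost without control replicate 2 and without shGDF11 replicate 2 or 3 (limma adjusted p = 0.0755, 0.108 and 0.102). It was also lost after rescaling to TPM (limma adjusted p = 0.075) and with no filter on low values (0.0795).

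Sox17 was at 1.45, 1.52 and 0.848 FPKM in control and 0.816, 0.589 and 0.429 FPKM in shGDF11. Its groups did not overlap, and its log2 fold change of -0.67 ± 0.216 lay near that of Tal1. It was not called (limma adjusted p = 0.0594), but it was without control replicate 3 (0.0255) and by limma voom on reads (0.0135). Sox17 rested on 33 to 121 reads per library, the fewest of these 3 factors. On the opposite strand, Gm37587 overlaps 16.8% of its exon bases and was listed at 0 to 0.0417 FPKM.

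The ETS factors Erg, Fli1 and Ets1 fell by similar amounts. Erg and Fli1 are close relatives that maintain endothelial identity and activate genes such as Cdh5. Erg (chr16:95359169-95586593) was at 4.46, 3.58 and 3.84 FPKM in control and 2.30, 2.68 and 2.83 FPKM in shGDF11 (log2 fold change -0.52 ± 0.109, limma adjusted p = 0.0136). Fli1 (chr9:32422204-32542861) was at 3.47, 3.10 and 2.97 FPKM in control and 2.27, 2.12 and 1.96 FPKM in shGDF11 (log2 fold change -0.49 ± 0.0948, limma adjusted p = 0.0102). Ets1 (chr9:32636221-32757820) was the most abundant of the factors, at 7.81, 7.70 and 8.61 FPKM in control and 5.82, 5.40 and 5.84 FPKM in shGDF11 (log2 fold change -0.46 ± 0.0727, limma adjusted p = 0.00459). Fli1 and Ets1 lie 93359 bases apart on chromosome 9, on opposite strands.

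Tal1 (chr4:115056426-115071755), a basic helix-loop-helix factor of blood and endothelial progenitors, was at 1.61, 1.32 and 1.04 FPKM in control and 0.542, 0.558 and 0.821 FPKM in shGDF11. Its groups did not overlap (log2 fold change -0.67 ± 0.176, limma adjusted p = 0.0298), but 39 to 111 reads per library stood behind it. The call was lost without control replicate 1 or 2 (limma adjusted p = 0.0728 and 0.0793) and without shGDF11 replicate 1 or 2 (0.0902 and 0.0951). It was lost as well with no filter on low values (0.0821). Selp, Vwf, Fli1 and Tal1 are also expressed by megakaryocytes. Of 8 megakaryocyte and platelet markers, 3 passed the filter and 1 of these 3 fell, beside 13.1% of all genes called lower. It was Pf4, which went from 5.38 to 2.80 FPKM. The sum of the 8 markers went from 6.59 to 8.75 FPKM in control to 4.36 to 5.26 FPKM in shGDF11, while Gp1bb was listed at 0 in every library. The part of these markers in the 4 genes was not tested.

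Lymphatic endothelium is set by Prox1 and carries the hyaluronan receptor LYVE-1. Neither gene was lower in shGDF11. Prox1, which cardiomyocytes also express, was at 5.59, 6.23 and 6.43 FPKM in control and 6.35, 6.81 and 6.76 FPKM in shGDF11 (interval of the log2 fold change -0.06 to 0.30). Lyve1 was at 5.17, 5.75 and 5.88 FPKM in control and 6.30, 7.64 and 6.33 FPKM in shGDF11. Although every shGDF11 value of Lyve1 lay above every control value, it was not called (log2 fold change 0.25 ± 0.0959, limma adjusted p = 0.0999). Resident macrophages also express Lyve1. Of 10 macrophage markers, 9 passed the filter, 3 fell (Lyz2, C1qa and C1qb) and 0 rose, beside 13.1% of all genes called lower. The sum of the 10 went from 173 to 194 FPKM in control to 134 to 143 FPKM in shGDF11. Lyz2 was the largest part of it, with means of 114 FPKM in control and 85.3 FPKM in shGDF11. Log2 fold changes were negative for 7 of the 9 and positive for 2, Csf1r (2.36 to 2.37 FPKM) and Adgre1 (0.902 to 0.929 FPKM).

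Among the other 8 genes, of transport and signalling, Fabp4, Gpihbp1 and Rasip1 fell, beside 13.1% of all genes called lower. Fabp4 (chr3:10204088-10208576), a fatty acid carrier of capillary endothelium, adipocytes and macrophages, was at 8.14, 7.56 and 9.40 FPKM in control and 5.82, 6.83 and 6.14 FPKM in shGDF11 (log2 fold change -0.39 ± 0.0989, limma adjusted p = 0.0269). Gpihbp1 (chr15:75596628-75599481), which holds lipoprotein lipase on the capillary wall, was at 2.24, 2.35 and 2.98 FPKM in control and 1.48, 1.24 and 1.82 FPKM in shGDF11 (log2 fold change -0.59 ± 0.147, limma adjusted p = 0.0254). Rasip1 (chr7:45627488-45639093), which opens vessel lumens, was at 2.98, 2.66 and 1.76 FPKM in control and 1.43, 0.973 and 1.26 FPKM in shGDF11 (log2 fold change -0.77 ± 0.188, limma adjusted p = 0.0232). None of these groups overlapped, yet each call depended on single libraries.

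The Fabp4 call was lost without control replicate 3 and without shGDF11 replicate 1 or 3 (limma adjusted p = 0.0563, 0.0912 and 0.0857), on the TPM scale (0.0925) and without the filter (0.0609). That of Gpihbp1 was lost without control replicate 2 or 3 (0.057 and 0.0626), without shGDF11 replicate 1 or 2 (0.0739 and 0.084), on the TPM scale (0.0562) and without the filter (0.0722). That of Rasip1 was lost without control replicate 1 or 2 (0.0552 and 0.0753), without shGDF11 replicate 2 or 3 (0.0803 and 0.0647) and with no filter (0.067). Rasip1 also shares 20.4% of its exon bases with Izumo1 on its own strand, listed at no more than 0.191 FPKM. It shares 22.5% with genes on the other strand, of which A030001D20Rik was listed at 1.07 to 1.90 FPKM. Reads from shared bases cannot be told apart, on the other strand unless strand was used in counting, so the level of Rasip1 is uncertain.

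Myct1, a membrane protein of endothelium, was at 3.87, 3.23 and 3.00 FPKM in control and 2.76, 2.19 and 2.42 FPKM in shGDF11. It missed the threshold narrowly (log2 fold change -0.38 ± 0.119, limma adjusted p = 0.0512), and it was called without control replicate 3 (0.0475), by limma voom (0.0475), with a pseudocount of 0.1 (0.049) and with the filter set at 1 FPKM (0.0474). Nos3, the endothelial nitric oxide synthase, was at 2.43, 2.35 and 1.57 FPKM in control and 1.72, 1.42 and 1.89 FPKM in shGDF11, and the groups overlapped. Other genes share 32.3% of the Nos3 exon bases on the opposite strand, chiefly Atg9b, which was at 3.59 to 5.16 FPKM in control and 1.52 to 2.33 FPKM in shGDF11. The level of Nos3 is uncertain for that reason.

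S1pr1, the sphingosine 1-phosphate receptor that stabilises endothelial junctions, was not lower. It was at 28.6, 31.2 and 31.3 FPKM in control and 30.4, 32.8 and 32.1 FPKM in shGDF11, with an interval of its log2 fold change from -0.08 to 0.21. It was second to Eng in control and had the highest level of the 36 genes in shGDF11. Cardiomyocytes also express S1pr1. Plvap, the diaphragm protein of fenestrated endothelium, was at 10.8, 8.03 and 7.40 FPKM in control and 7.04, 5.72 and 8.67 FPKM in shGDF11 (interval -0.69 to 0.15). Aqp1, a water channel of capillaries, was at 5.13 to 5.89 FPKM in control and 4.79 to 6.14 FPKM in shGDF11 (interval -0.28 to 0.22). The groups overlapped for all 3 genes.

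Ratios to Pecam1 were taken for 7 of the endothelial genes, among them Selp, Sele and Vcam1, which had the largest changes either way. Vcam1, S1pr1 and Lyve1 are also made by other cells, as given above, so their ratios are not those of endothelial cells alone. Against Pecam1 in the same library, Selp was at a ratio of 0.259, 0.297 and 0.261 in control and 0.119, 0.0931 and 0.140 in shGDF11. The ratio of Sele to Pecam1 was 0.345 to 0.433 in control and 0.172 to 0.270 in shGDF11, and both selectins thus lay lower relative to Pecam1 in each shGDF11 library than in any control. The ratio of Vcam1 to Pecam1 was 1.31 to 1.35 in control and 2.13 to 2.69 in shGDF11. For S1pr1 it was 2.09 to 2.29 and 2.88 to 3.28, and for Lyve1 0.377 to 0.423 and 0.569 to 0.704. In contrast, the groups overlapped for the ratios of Icam1 and Cdh5 to Pecam1. Over the 7 ratios compared, the exact two-sided permutation p was 0.1 for the 5 without overlap, the smallest that 3 against 3 allows (0.14 with Benjamini-Hochberg adjustment). It was 0.2 for the ratios of Icam1 and Cdh5 (0.2 adjusted), so none can pass a threshold of 0.05.

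**Figure D3:**
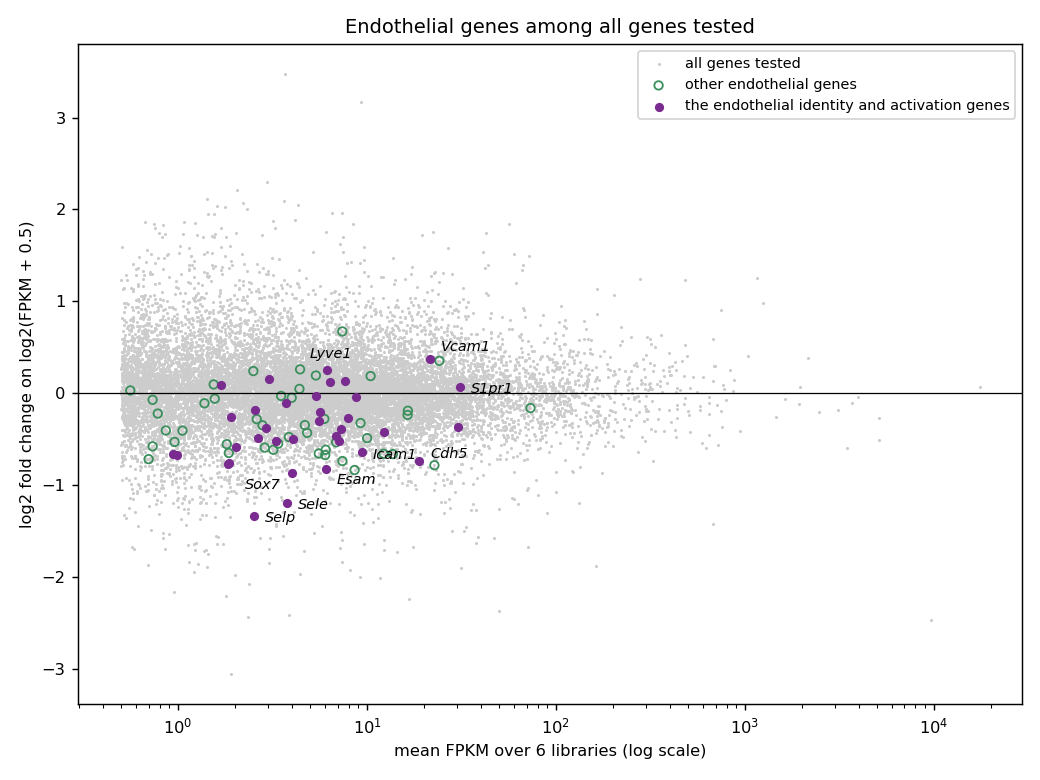
Log2 fold change on log2(FPKM + 0.5) against the mean FPKM over 6 libraries (log axis) for all 15418 genes tested in grey, the 35 endothelial genes as filled points and 45 other endothelial genes as open circles. Most filled and open points lie below 0, with Selp and Sele lowest and Vcam1 above.

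A second list of 48 endothelial genes outside the 36, also chosen with earlier results of these data known, was set beside them. Of these, 45 passed the filter, 23 fell, 2 rose and 20 were not called, beside 13.1% of all genes called lower and 14.4% called higher. Their median log2 fold change was -0.35. The falls with the smallest p were those of Tm4sf1, a tetraspanin-like protein of vessel endothelium (28.9 ± 1.23 to 16.6 ± 0.608 FPKM), and Tie1, the orphan receptor of the angiopoietin system (9.39 ± 0.407 to 5.42 ± 0.272 FPKM). They were followed by Podxl, a sialomucin (7.42 ± 0.274 to 4.67 ± 0.104 FPKM), and Procr, the receptor of activated protein C (11.1 ± 0.377 to 6.04 ± 0.730 FPKM). Their limma adjusted p lay between 0.000426 and 0.00121. The 2 rises were Jam2, a junctional adhesion molecule (5.62 ± 0.997 to 9.17 ± 0.682 FPKM), and Cav1, the caveolar coat protein that many cell types make (21.2 ± 1.62 to 27.1 ± 1.05 FPKM). Without shGDF11 replicate 2 there was 1 rise. The VEGF receptor genes Kdr and Flt1, named after their values were seen, were among the 23 that fell. Flt4, the other VEGF receptor gene of the list, was not called (log2 fold change 0.26 ± 0.0937, limma adjusted p = 0.0823). Every shGDF11 value of Flt4 lay above every control value.

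Sele, Icam1 and Vcam1 are textbook targets of NF-kB, and a list of 20 other genes that it is known to induce was set beside them. Some genes of the list were known from earlier results of these data to have fallen, so its counts are no independent evidence of a direction. Of the 20, 18 passed the filter, 10 fell, 0 rose and 8 were not called, beside 13.1% of all genes called lower. The falls with the smallest p were Csf3, a granulocyte growth factor (6.80 to 0.881 FPKM), and the chemokine genes Cxcl1 (19.1 to 5.51 FPKM), Ccl7 (48.2 to 16.7 FPKM) and Cxcl5 (11.8 to 2.94 FPKM). Log2 fold changes were negative for 15 of the 18 and positive for 3, Nfkb1, Rel and Cx3cl1. Nfkb1 (7.04 to 7.98 FPKM) and Cx3cl1 (8.80 to 10.3 FPKM) were higher in every shGDF11 library than in any control, but were not called. The summed level of the 20 genes was 216 to 238 FPKM in control and 118 to 127 FPKM in shGDF11. Ccl2 (50.8 to 21.6 FPKM) and Ccl7 were the highest of them in control. NF-kB activity was not tested.

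Markers of other cells are given beside the 14.4% of all genes called higher and the 13.1% called lower, and with lists this short several counts lie within about 1 gene of those shares. The 12 cardiomyocyte markers gave 3 rises (Ckm, Myl2 and Tnni3) and 4 falls (Actn2, Myl3, Pln and Ryr2), and their sum overlapped between the groups (5339 to 6142 and 5272 to 5590 FPKM). The 8 pericyte and smooth muscle markers gave 0 rises and 2 falls, Cspg4 (69.7% of control) and Myh11 (65.2%). Their sums were 127 to 130 FPKM in control and 128 to 131 FPKM in shGDF11. Mcam (53.7 to 57.4 FPKM) and Abcc9 (37.8 to 37.6 FPKM), neither of them called, made up most of these sums. The sum of the 36 endothelial genes was 81.7% ± 0.712 of the control mean. It was 74.6% ± 2.67 for macrophage and 116% ± 2.56 for fibroblast markers (SD over 3 libraries for all). Eng, S1pr1, Cdh5 and Vcam1 were the highest of the 36 in control. Of these, Eng and Cdh5 fell, S1pr1 was not called and Vcam1 rose. Col1a1 (139 to 159 FPKM), the largest part of the fibroblast sum, was not called, and its groups overlapped. Lyz2 made up the largest part of the macrophage sum, in which Csf1r and Adgre1 did not fall. The 6 endocardial markers, which include Plvap, gave 1 rise (Cgnl1) and 1 fall (Nfatc1), and Cytl1 was listed at 0 throughout. The 7 mesothelial and epicardial markers gave 2 rises (Upk3b and Tbx18) and 1 fall (Krt19). Of 8 erythroid markers 1, Epor, passed the filter and was not called. How far a change in the mix of cells entered the endothelial values was not tested.

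**Figure D4:**
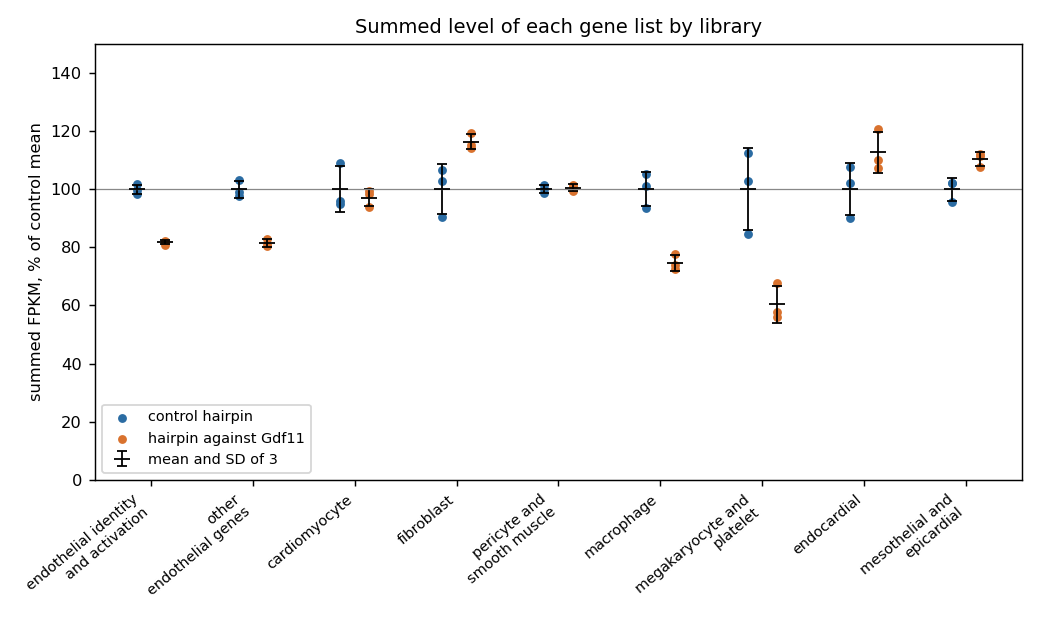
Summed FPKM of the endothelial and marker gene lists in each library, as a percentage of the mean of the 3 control libraries. The mean and SD of each group are drawn, and the erythroid and NF-kB lists are left out. The endothelial identity and activation genes lie at 80.9% to 82.3% in shGDF11, below all control libraries, while pericyte and smooth muscle markers stay near 100%. Mcam and Abcc9 make up most of the pericyte and smooth muscle sum.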

How the data were processed

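RNA-seq of 6 libraries was used, 3 shGDF11 and 3 control, grouped by their treatment label. Values are the FPKM that the authors deposited for each gene. Tools listed in the submitters' processing notes are featureCounts 1.5.0-p3, HISAT2 2.0.5 and CASAVA 1.8, and the builds listed are mm10 and GRCm38. The sources used here state neither the annotation release nor whether strand was used. Read numbers were recovered from FPKM and gene length (100% of positive values came within 0.05 of a whole read). A count of 3 reads equals 0.18 to 0.191 FPKM for a gene of 1 kb, for counting error only. All 36 genes had the coordinates of GENCODE M21 (GRCm38), and 11 shared exon bases with other genes there.

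The 15418 genes averaging 0.5 FPKM or more were tested two-sided on log2(FPKM + 0.5) in R 4.3.3 with limma 3.58.1, using eBayes and a variance trend, with Benjamini-Hochberg adjustment over all of them. Calls needed an adjusted p under 0.05. Each log2 fold change is shGDF11 minus control, and it understates the change of low genes. The test was tried on simulated counts that had the same spread beyond counting error set for every gene. That run does not give its error rate in these data. The libraries of a group were not duplicates (chi-square 3.42 to 18.3 per degree of freedom). No label gives a batch.

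The 36 genes and the other lists were chosen with earlier results of these data known. Every one of the 36 genes was named, and of each other list up to 4 genes with the smallest p. Further genes of those lists were picked with their values in view, to show which ones a short count holds. Alternatives were the pseudocount, filter, scaling, variance model, limma voom on reads, blocking by replicate number and leaving out each library. Rescaling to TPM without genes under 200 bases was added after the data were seen, since the microRNA gene Gm23935 was at 40996 FPKM in 1 control library and 1065 to 9686 in the others. Promoter windows are from RefSeq (GRCm38.p6).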

Additional observations from a re-analysis of the deposited data

How the results depend on the processing

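Of the 18 falls, 12 were called under all 16 alternatives, and the other 6 (Pecam1, Sox18, Tal1, Fabp4, Gpihbp1 and Rasip1) lost their call under some. The log2 fold change of all 18 stayed negative, and Vcam1 was called higher under all 16. Counts of falls were 13 with no filter on low values, where more genes were tested, and 14 after rescaling to TPM. They were 18 after rescaling to TPM without genes under 200 bases, 20 by limma voom, and 14 to 18 with 1 library left out. The share of all genes tested that was called lower moved as well, from 13.1% in the main fit. It was 4.43% with no filter, 8.59% after rescaling to TPM and 12.1% when that left out short genes. By limma voom it was 15.9%, and with 1 library left out it was 6.95% to 12.9%. Omission of 1 library gave 2328 to 4233 called genes over the whole table, against 4253, with fewer libraries in the test, and 1 to 3 rises among the other endothelial genes. The whole-table total was 2720, 2328 and 2529 without shGDF11 replicates 1, 2 and 3. After rescaling to TPM, 66.3% of called genes were higher, against 52.4%, and 56.5% without short genes. The sign turned for Aqp1 and Mmrn2, which are not called. After rescaling to TPM the log2 fold change was 0.057 for Aqp1 and 0.046 for Mmrn2, and with 1 library left out it ran from -0.125 to 0.039 for Aqp1 and from -0.123 to 0.039 for Mmrn2. Over all genes tested, the median log2 fold change was 0.084 after rescaling to TPM, against 0.006 in the main fit. The cause of the sign turns was not tested. With the replicate number as a block, 17 of the endothelial genes fell, 15 of them among the 18, and 3223 genes were called in all. Of all genes tested, 10.2% were called lower in that fit. Sox18, Tal1 and Fabp4 were lost (limma adjusted p = 0.0631, 0.0761 and 0.06), and Sox17 and Myct1 gained (0.0449 and 0.0485). Same-numbered libraries did not deviate together (correlations of 0.0153, 0.0149 and -0.0521), so the numbers were not taken to pair the samples. Depth limits Mmrn1, Sox17 and Tal1 most.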
